A study of Mus musculus with 8 samples.

Results

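The calcium-handling genes of the cardiomyocyte described here were Atp2a2, Pln, Ryr2, Casq2, Slc8a1, Cacna1c, Camk2d, Fkbp1b, Trdn and Hrc, chosen by their symbols, and they were 10 of the 32285 genes that the files list. They were measured in hearts of wild type male C57BL/6J mice. The labels give an age of 8 weeks, which in the methods is that of the mice as purchased. A separate age at harvest is not stated. Transverse aortic constriction (TAC), which narrows the aortic arch with a ligature and so raises the pressure load on the left ventricle, was compared with sham surgery, in which the ligature was left out. Hearts were taken 2, 4 and 6 weeks after TAC (named TAC-2w, TAC-4w, TAC-6w below), and the labels give no time for sham. Each condition had 1 tissue section measured by spatial transcriptomics (ST), in which RNA is caught on barcoded spots of a slide, and 1 single-cell library, and the sources used here do not say how many hearts a section or library held. With 1 sample per condition no test between conditions was possible, no p-value is given, and every interval below covers counting error only and not the difference between mice.

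In each heartbeat, calcium enters the cardiomyocyte through the L-type channel and opens the ryanodine receptor of the sarcoplasmic reticulum, from which much more calcium flows to the sarcomere. For relaxation, the pump SERCA2a returns calcium to the sarcoplasmic reticulum, phospholamban restrains the pump until it is phosphorylated, and the sodium-calcium exchanger carries the rest out of the cell. Lower SERCA2a relative to phospholamban is a textbook feature of the overloaded and failing ventricle.

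A spot of the sections can hold several cells of different types, and in such mixed samples fewer cells of a type and less RNA per cell cannot be told apart. The sections held 1228 to 2193 spots over tissue and 25996378 to 48754396 UMIs (unique molecular identifiers, each counted as 1 captured RNA molecule). Levels were compared in matched spots, those with 20000 to 30000 UMIs, of which there were 488 in sham, 1309 in TAC-2w, 371 in TAC-4w and 383 in TAC-6w. A level is the summed UMI count of a gene per 1000000 UMIs (CPM) with the mitochondrially encoded mt- genes left out of the total, because their share of the UMIs was 50.9% in sham and 43.1% to 44.7% in the TAC sections. All 6 cardiomyocyte markers (Myh6, Tnnt2, Tnni3, Actc1, Myl2 and Myl3) were detected in every section, with summed levels of 80843 CPM in sham and 73447, 52796 and 69882 CPM in the TAC sections by time. The atrial markers Myl4, Myl7 and Sln summed to 3.24 to 5.75 CPM, and no spot of any section reached an atrial-marker share of 0.5%, so the values below are from tissue without an atrial marker signal. By the labels, the sections of sham and TAC-2w shared batch 1, that of TAC-4w was batch 2 and that of TAC-6w batch 3, so batch and condition cannot be told apart for TAC-4w and TAC-6w.

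The start regions of the genes whose levels moved apart are shown so that the members can be told by sequence. Of the 10 genes, 8 had an entry in the RefSeq promoter table (build GRCm38.p6), and the entries of Atp2a2 and Trdn were missing. The 200 bases before the start are printed for Ryr2 and Hrc, which were lower in TAC-4w and TAC-6w, and for Pln and Casq2, which were not lower past the fold in any TAC section. Capitals mark matches on either strand. The TATA box was searched as the letters TATAAA. The GC box, which Sp1 binds, was searched as GGGCGG, and the CACC box, bound by zinc finger factors, as CCACCC. The motif of the GATA factors was searched as AGATAA. That of the TEAD factors, the MCAT element, was searched as CATTCC, and the core of the NFAT site as GGAAAA. A match is only a run of letters and not a measured site.
Ryr2, chr13:12106946-12107145, minus strand: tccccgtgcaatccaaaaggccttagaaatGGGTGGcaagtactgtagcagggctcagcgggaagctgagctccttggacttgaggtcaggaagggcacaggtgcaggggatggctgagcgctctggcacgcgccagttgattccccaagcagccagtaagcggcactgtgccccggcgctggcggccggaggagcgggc
Hrc, chr7:45335069-45335268, plus strand: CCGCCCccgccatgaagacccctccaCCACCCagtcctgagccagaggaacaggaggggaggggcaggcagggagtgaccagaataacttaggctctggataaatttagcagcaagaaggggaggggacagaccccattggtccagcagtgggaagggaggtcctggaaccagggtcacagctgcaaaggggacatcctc
Pln, chr10:53337486-53337685, plus strand: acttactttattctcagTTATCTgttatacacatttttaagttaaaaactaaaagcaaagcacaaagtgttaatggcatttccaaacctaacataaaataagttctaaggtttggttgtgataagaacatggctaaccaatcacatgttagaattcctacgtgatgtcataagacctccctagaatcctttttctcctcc
Casq2, chr3:102086215-102086414, plus strand: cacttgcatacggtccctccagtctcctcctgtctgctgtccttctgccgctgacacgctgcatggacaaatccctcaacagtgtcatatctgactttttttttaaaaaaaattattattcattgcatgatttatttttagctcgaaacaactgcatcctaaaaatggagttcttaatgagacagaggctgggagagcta
The window of Pln held 1 GATA match, a motif found in 7.80% of all 32851 windows of this length, and had a GC content of 33.0%. Ryr2 held 1 CACC box match, and Hrc held 1 CACC box and 1 GC box match, motifs found in 24.1% and 31.0% of all windows. No capital stands in the window of Casq2, and none of the printed windows held a TATA box match, found in 9.96% of all windows. Matches to CANNTG (E-box), found in 58.2% of all windows, are not capitalized and numbered 2 in Ryr2, 1 in Hrc, 1 in Pln and 2 in Casq2.

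Atp2a2, whose products include SERCA2a (ENSMUSG00000029467), was lower in the later TAC sections. Its level was 11304 CPM in sham, 10665 in TAC-2w, 8695 in TAC-4w and 8746 in TAC-6w, so TAC-4w and TAC-6w lay together and below the other sections. The ratios to sham were 0.943 (0.935 to 0.952), 0.769 (0.760 to 0.778) and 0.774 (0.765 to 0.783). Single spots also separated sham and TAC-2w from the later sections, with a median of 11478 CPM per spot in sham, 10639 in TAC-2w, 8740 in TAC-4w and 8690 in TAC-6w, and the upper quartile of the TAC-4w spots (9738 CPM) lay below the lower quartile of sham (10466 CPM). Both later sections were below sham at other depths too, at 8221 CPM in TAC-4w and 8363 in TAC-6w against 11218 in sham in spots of 10000 to 20000 UMIs, and at 9214 and 8729 against 11100 CPM in spots of 30000 to 50000 UMIs. Which of them was the lower one depended on the spots used.

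Pln, which encodes phospholamban (ENSMUSG00000038583), did not share this course. Its level was 5003 CPM in sham, 5848 in TAC-2w, 5207 in TAC-4w and 4482 in TAC-6w, the highest in TAC-2w and the lowest in TAC-6w. The ratios were 1.17 (1.15 to 1.18), 1.04 (1.02 to 1.06) and 0.896 (0.881 to 0.911), and none passed the fold of 1.3 used as the call here. In TAC-6w the direction depended on the total, since the ratio was 1.01 with all genes in the total. On that scale Pln was past the fold in TAC-2w (1.34), where 12.7% of all genes tested were higher.

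**Figure D1:**
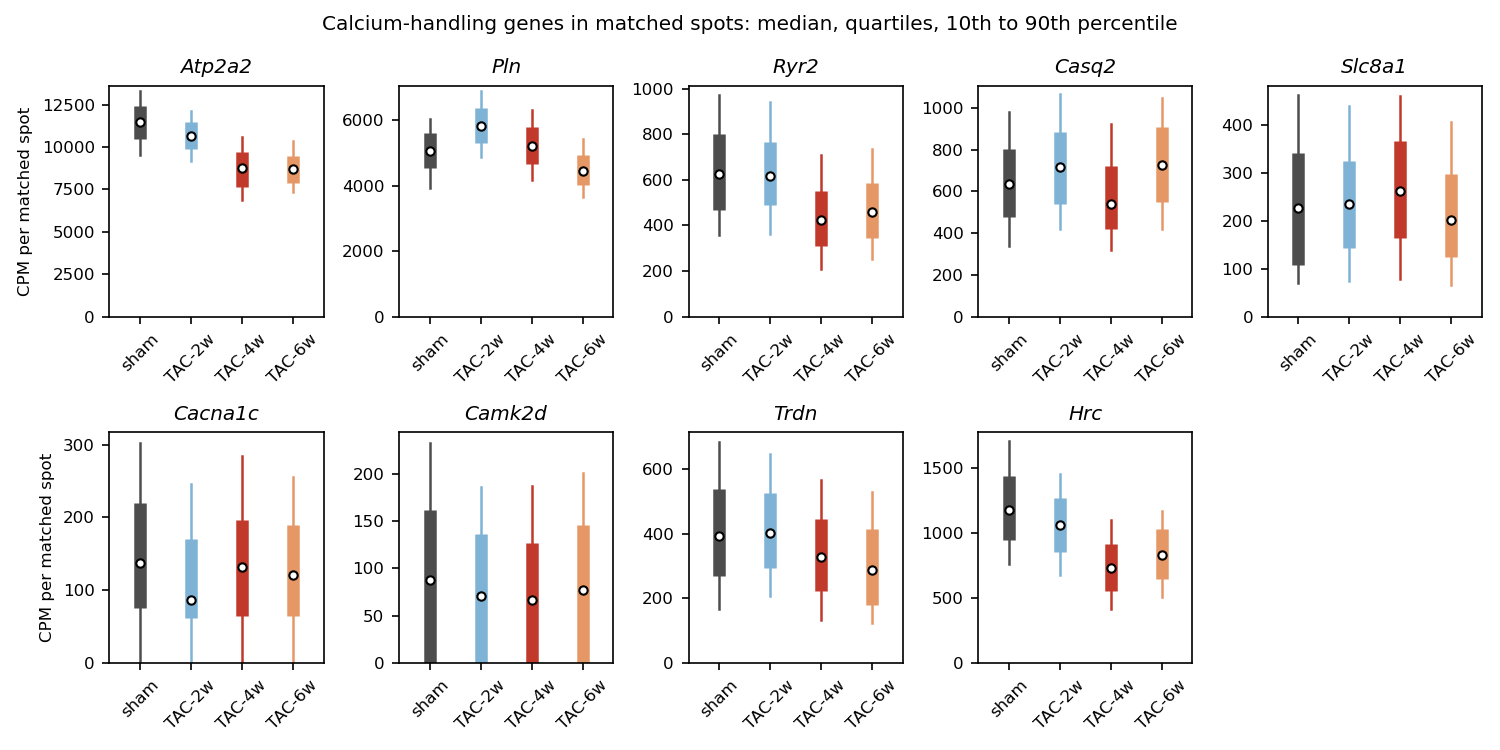
Level of 9 calcium-handling genes in single matched spots (CPM, mt- genes left out of the total, linear axis from 0) for the sham section and the TAC sections by time. White points are medians, thick bars quartiles and thin lines the 10th to 90th percentiles over spots, which are not replicates. Medians of Atp2a2, Ryr2, Trdn and Hrc are lower in TAC-4w and TAC-6w than in sham, while that of Pln is highest in TAC-2w and that of Casq2 in TAC-6w. Fkbp1b is left out because at most 2.05% of spots held a UMI of it.

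The RNA of the pump relative to that of its inhibitor was lower in every TAC section. Protein levels and phosphorylation were not measured in these data, and the counts of Atp2a2 do not separate SERCA2a from its other products. Per UMI of Pln there were 2.26 (2.23 to 2.29) UMIs of Atp2a2 in sham, 1.82 (1.81 to 1.84) in TAC-2w, 1.67 (1.65 to 1.69) in TAC-4w and 1.95 (1.92 to 1.98) in TAC-6w. Capture differs between genes, so only the change is compared: relative to sham the ratio was 0.807 (0.795 to 0.820), 0.739 (0.724 to 0.754) and 0.864 (0.846 to 0.882). In CPM, the change in TAC-2w, the section of the same batch as sham, came with a higher Pln and a slightly lower Atp2a2. In TAC-4w it came, also in CPM, with a lower Atp2a2 and a Pln level close to that of sham. Both genes come from the same spots, so the ratio of Atp2a2 to Pln does not depend on the total. How its change divides between the genes depends on the scale used. With all genes in the total, Atp2a2 was at 1.08 and Pln at 1.34 times sham in TAC-2w, and at 0.892 and 1.21 in TAC-4w. Per UMI of the sarcomere genes listed below, Atp2a2 was at 1.04 and Pln at 1.29 in TAC-2w, and at 1.07 and 1.45 in TAC-4w. Of single matched spots, 90.7% in TAC-2w, 94.6% in TAC-4w and 81.5% in TAC-6w lay below the sham median of 2.27. Sham had the highest value in each of 5 depth ranges between 500 and 50000 UMIs per spot, although in spots of 500 to 5000 UMIs, with 13 spots in TAC-2w, its interval overlapped that of TAC-2w.

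**Figure D2:**
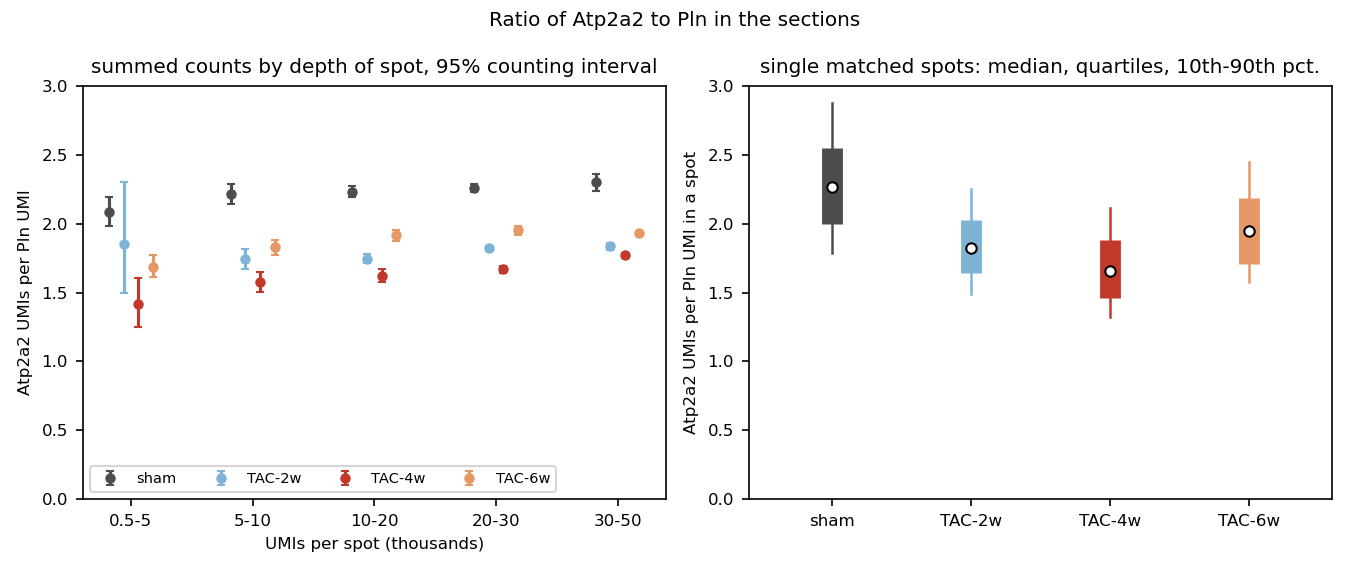
UMIs of Atp2a2 per UMI of Pln. The left panel plots summed counts against the depth of the spots (ranges of UMIs per spot) with 95% counting intervals, and the right panel single matched spots (white point, median; thick bar, quartiles; thin line, 10th to 90th percentile). Sham is highest at every depth and TAC-4w lowest, with medians of 2.27, 1.82, 1.65 and 1.95 in the right panel.

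Of the genes of the release complex, Ryr2 and Hrc were lower past the fold in TAC-4w and TAC-6w and Trdn in TAC-6w, and Casq2 in neither. Ryr2, the release channel (ENSMUSG00000021313), was at 641 CPM in sham, 634 in TAC-2w, 438 in TAC-4w and 476 in TAC-6w. Its ratio was 0.988 (0.953 to 1.03) in TAC-2w, where the interval holds 1, and 0.683 (0.648 to 0.719) in TAC-4w and 0.742 (0.705 to 0.780) in TAC-6w, both past the fold. Hrc, the histidine-rich calcium-binding protein of the reticulum lumen (ENSMUSG00000038239), was at 1196, 1069, 742 and 838 CPM in the same order. Its ratios of 0.894 (0.869 to 0.919), 0.620 (0.596 to 0.645) and 0.700 (0.674 to 0.727) were below 1 in all TAC sections. In TAC-4w and TAC-6w they were the lowest of the 9 genes with enough counts. Trdn, whose product triadin anchors calsequestrin to the release channel (ENSMUSG00000019787), was at 408 CPM in sham, 416 in TAC-2w, 342 in TAC-4w and 301 in TAC-6w. Its ratio was 1.02 (0.972 to 1.07) in TAC-2w, 0.837 (0.787 to 0.890) in TAC-4w and 0.737 (0.691 to 0.786) in TAC-6w.

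Casq2, the main calcium buffer of the lumen (ENSMUSG00000027861), was at 648 CPM in sham, 731 in TAC-2w, 582 in TAC-4w and 736 in TAC-6w. It was above sham in TAC-2w (1.13, 1.09 to 1.17) and TAC-6w (1.14, 1.09 to 1.19) and below it in TAC-4w (0.897, 0.855 to 0.941), where it was above sham (1.04) with all genes in the total. The RNA of Casq2 relative to that of Hrc therefore differed from sham in each TAC section, while the luminal proteins themselves were not measured. Casq2 per UMI of Hrc was 0.542 in sham, 0.684 in TAC-2w, 0.784 in TAC-4w and 0.878 in TAC-6w. This was a change to 1.26 (1.21 to 1.32), 1.45 (1.36 to 1.54) and 1.62 (1.53 to 1.72) times sham. Casq2 per UMI of Trdn changed most in TAC-6w, to 1.54 times sham (1.43 to 1.66). Ryr2 per UMI of Hrc stayed nearer to sham, at 1.11 (1.06 to 1.16), 1.10 (1.03 to 1.17) and 1.06 (0.994 to 1.13) times its value there.

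At the surface membrane and for the kinase, no member passed the fold in the matched spots. The fold was also counted in spots of 10000 to 20000 and of 30000 to 50000 UMIs, and 2 passed it there, both in TAC-4w. Slc8a1 was at 1.41 in spots of 30000 to 50000 UMIs, where 16.0% of all genes tested were higher. Camk2d was at 0.669 in spots of 10000 to 20000 UMIs, where 18.8% were lower. Shallower spots were not called by the fold. In those of 5000 to 10000 UMIs, TAC-2w had Cacna1c at 87.8, Camk2d at 76.4 and Slc8a1 at 257 CPM. Sham had 129, 107 and 259 CPM there. Slc8a1, the sodium-calcium exchanger (ENSMUSG00000054640), was at 247 CPM in sham, 246 in TAC-2w, 270.0 in TAC-4w and 218 in TAC-6w. Its ratio was 0.996 (0.938 to 1.06), 1.09 (1.02 to 1.18) and 0.882 (0.816 to 0.954), so it was the member furthest above sham in TAC-4w. Relative to it, Atp2a2 was at 0.703 times the sham value (0.653 to 0.757) in TAC-4w. Cacna1c, the pore of the L-type channel (ENSMUSG00000051331), was at 149, 116, 136 and 128 CPM, with ratios of 0.781 (0.721 to 0.847), 0.913 (0.826 to 1.01) and 0.863 (0.779 to 0.955). Ryr2 per UMI of Cacna1c was higher than in sham in TAC-2w (1.27 times, 1.16 to 1.38) and lower in TAC-4w (0.748 times, 0.669 to 0.836) and TAC-6w (0.860 times, 0.768 to 0.962).

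Camk2d, the kinase that phosphorylates the release channel and phospholamban (ENSMUSG00000053819), was at 102, 82.8, 80.3 and 97.9 CPM in sham and the TAC sections by time. Its ratios were 0.812 (0.738 to 0.894), 0.787 (0.694 to 0.893) and 0.960 (0.851 to 1.08). Fkbp1b, the calstabin that binds the release channel (ENSMUSG00000020635), had only 10, 15, 6 and 6 UMIs in the matched spots, 0.811 to 1.73 CPM, which is too few to read a difference. Fkbp1a, its paralog, had 932 to 3223 UMIs in the same spots.

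Called by size, a ratio of at least 1.3 counted as higher and one of at most 1 over 1.3 (0.769) as lower, among genes with at least 200 UMIs over the matched spots of the 4 sections. Of the 10 genes 9 had enough counts. In TAC-2w none of the 9 was higher and none lower, while 4.43% of the 9477 genes tested were higher and 25.5% lower. In TAC-4w 0 were higher, against 11.9% of all genes, and 3 were lower (Atp2a2, Ryr2 and Hrc), against 17.4%. In TAC-6w 0 were higher, against 14.5%, and 3 were lower (Ryr2, Trdn and Hrc), against 6.52%. Atp2a2 lay at the threshold, just inside it in TAC-4w (0.769) and just outside it in TAC-6w (0.774), and the next genes outside were Camk2d (0.787) in TAC-4w and Cacna1c (0.781) in TAC-2w. The median ratio of the 9 genes was 0.988 in TAC-2w, 0.837 in TAC-4w and 0.863 in TAC-6w, beside 0.884, 0.961 and 1.05 over all genes tested. All 3 comparisons share the sham section.

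The median gene of TAC-2w was shifted by -0.18 on the log2 scale. Relative to that median, Pln was at 1.32 and Casq2 at 1.28, Atp2a2 at 1.07, Camk2d at 0.919 and Cacna1c at 0.884. Leaving the mt- genes in the total raised all ratios, since their share was highest in sham. With all genes in the total, 12.7% of genes were higher and 10.8% lower in TAC-2w, 25.3% and 7.21% in TAC-4w and 30.6% and 2.75% in TAC-6w. On that scale Hrc was still lower past the fold in TAC-4w (0.719), no member was lower in TAC-6w, where Hrc was at 0.789, and Atp2a2 was at 1.08 in TAC-2w, 0.892 in TAC-4w and 0.872 in TAC-6w.

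**Figure D3:**
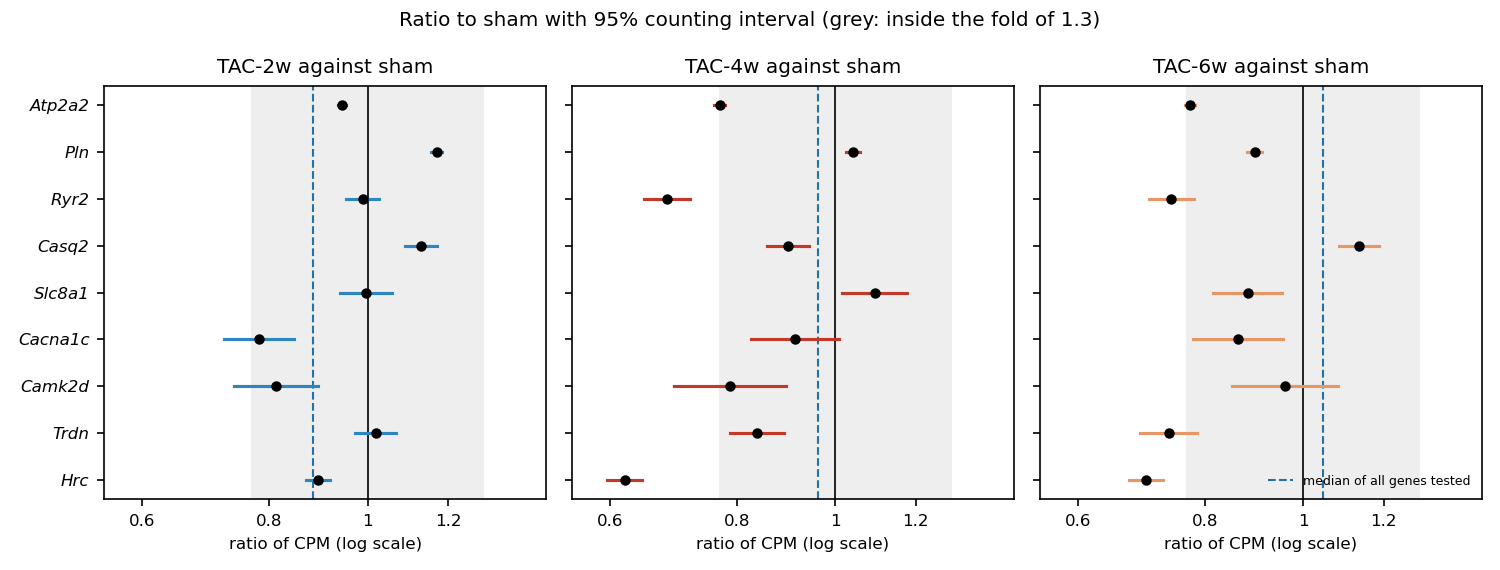
Ratio of the level in each TAC section to sham for 9 calcium-handling genes (log axis). Points are ratios of CPM, lines 95% counting intervals, the grey band the range inside the fold of 1.3, and the dashed line the median of all genes tested (0.884, 0.961 and 1.05). No member is outside the band in TAC-2w, and Ryr2 and Hrc are left of it in TAC-4w and TAC-6w.

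Other cardiomyocyte transcripts moved in the same sections. The 6 sarcomere genes Tnnt2, Tnni3, Actc1, Myl2, Myl3 and Tnnc1 together were at 70440 CPM in sham, 63671 in TAC-2w, 50520 in TAC-4w and 62630 in TAC-6w, ratios of 0.904, 0.717 and 0.889. All 6 were below sham in TAC-4w (0.659 to 0.849). In TAC-6w they did not move alike, with 2 above and 4 below sham (0.741 to 1.13), so the sum of TAC-6w mixes both directions. Per sarcomere-gene UMI, Atp2a2 was above sham in TAC-2w (1.04, 1.03 to 1.05) and TAC-4w (1.07, 1.06 to 1.09), the reverse of its direction in CPM. It was below sham in TAC-6w (0.870, 0.860 to 0.881). Over all genes tested, the median ratio on this scale was 0.978 in TAC-2w, 1.34 in TAC-4w and 1.18 in TAC-6w. Atp2a2 in TAC-4w was thus above sham but below the median gene. Pln was at 1.29 times sham in TAC-2w, 1.45 in TAC-4w and 1.01 in TAC-6w on this scale, and Casq2 at 1.25, 1.25 and 1.28. Slc8a1 reached 1.52 times sham in TAC-4w. Hrc was at 0.989 (0.962 to 1.02), 0.865 (0.831 to 0.899) and 0.788 (0.759 to 0.818), and Ryr2 was at 0.952 (0.904 to 1.00, which holds 1) in TAC-4w and 0.834 (0.793 to 0.878) in TAC-6w. Trdn was above sham in TAC-4w (1.17) and below it in TAC-6w (0.829). In TAC-4w Casq2 and Trdn, though above sham, were also below the median gene of this scale, while Pln and Slc8a1 were above it. Thus the lower Hrc of TAC-4w and TAC-6w, the lower Ryr2 of the same sections and the lower Atp2a2 and Trdn of TAC-6w had the same direction on every scale tried, and the lower Atp2a2 and Trdn of TAC-4w had not.

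Markers of other cells and states also differed between the sections. The overload genes Nppa, Nppb, Myh7, Ankrd1 and Acta1 summed to 1157 CPM in sham, 908 in TAC-2w, 19940 in TAC-4w and 8855 in TAC-6w. Macrophage markers summed to 840, 604, 1209 and 1069 CPM, endothelial markers to 2635, 2089, 2839 and 3803 CPM, and the haemoglobin genes to 12376, 19202, 7320 and 13912 CPM. Smooth muscle and pericyte markers were at 1263 CPM in sham and at 890, 917 and 1067 CPM in the TAC sections (0.704, 0.726 and 0.845 times sham), and the collagen genes at 431, 330.3, 178 and 956 CPM. The fibroblast markers Col1a1, Col1a2, Dcn, Lum, Pdgfra and Gsn summed to 3626, 2714, 3850 and 3831 CPM. In TAC-4w they were thus near sham (1.06 times), unlike the collagen genes. No macrophage, endothelial, smooth muscle or collagen gene of these lists was at 0 in any section. Their part in the levels of the calcium-handling genes was not tested.

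**Figure D4:**
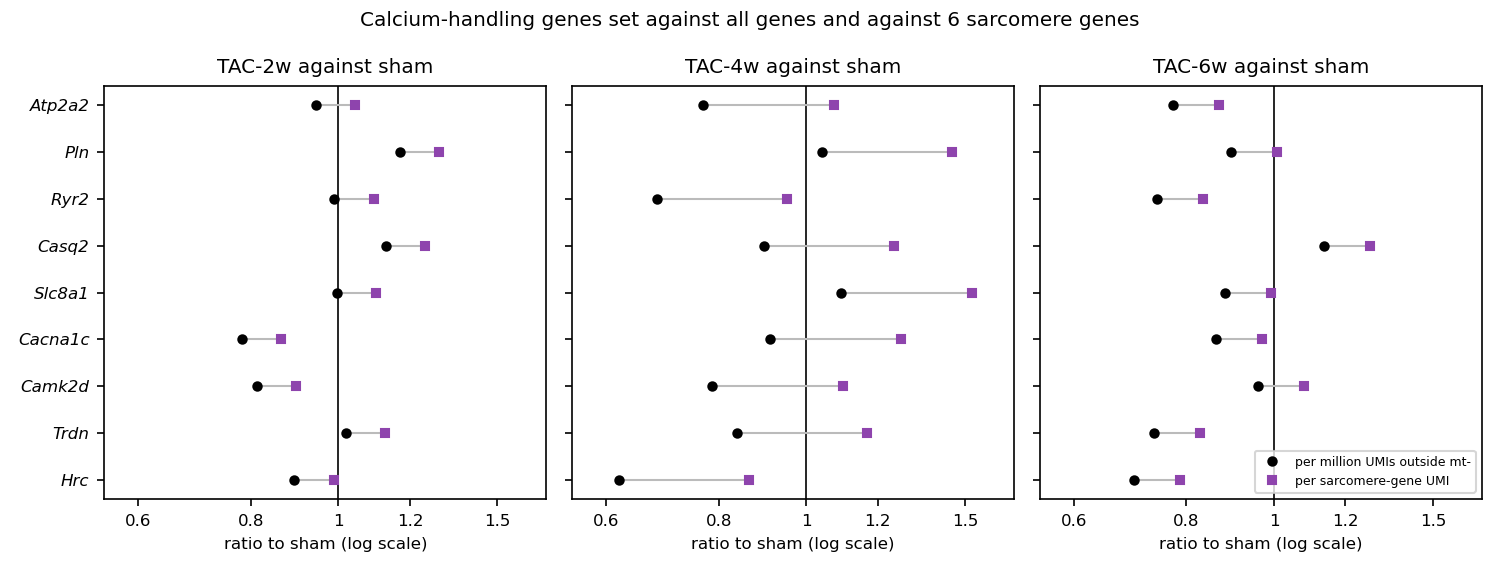
Ratio to sham of 9 calcium-handling genes (log axis) in the TAC sections, as CPM outside mt- (black circles) and per UMI of 6 sarcomere genes (purple squares). In TAC-4w the squares lie furthest to the right of the circles, and only Ryr2 (0.952) and Hrc (0.865) remain below 1 on the sarcomere scale. The median of all genes tested, not drawn, was 0.978, 1.34 and 1.18 on that scale in TAC-2w, TAC-4w and TAC-6w.

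Across the spots of a section, Atp2a2 and Pln were present in every matched spot. The coefficient of variation of Atp2a2 was 0.136 in sham, 0.108 in TAC-2w, 0.173 in TAC-4w and 0.139 in TAC-6w, where counting alone would give 0.0820 to 0.0913. That of Pln was 0.135 to 0.166, with 0.111 to 0.131 from counting. For the other 8 genes the spread was a smaller multiple of that from counting. In sham, for example, it was 0.392 against 0.367 for Ryr2 and 0.926 against 0.920 for Camk2d. Such a multiple nears 1 where counts are low. As a difference, some genes were further from counting than Atp2a2, such as Slc8a1 in sham (0.661 against 0.591). Genes of unlike counts were therefore not ranked by their spread. Atp2a2 and Pln also had a spatial order in every section. For Atp2a2 the correlation between a spot and the mean of its matched neighbours was 0.263 in sham, 0.229 in TAC-2w, 0.572 in TAC-4w and 0.363 in TAC-6w, over 201 to 1188 spots. For Pln it was 0.225, 0.238, 0.355 and 0.302. Of the other members, Camk2d reached 0.296 and Casq2 0.184 in TAC-4w, Casq2 0.153 in TAC-2w and Slc8a1 0.144 in TAC-6w, each with values near 0 or below in another section. Ryr2, Cacna1c, Trdn and Hrc had values between -0.165 and 0.124, at counts of 1.64 to 15.1 UMIs per spot.

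Over matched spots Atp2a2 and Pln were correlated with each other (mean r over the 4 sections 0.284, range 0.139 to 0.367), as a description in which the points share a section and a total. Among 2107 genes detected in enough spots, the 5 most like Atp2a2 were Myh6 (mean r 0.412), Tnnt2 (0.375), Slc25a4 (0.362), Tnni3 (0.350) and Lpl (0.348), and Pln ranked 15. Those most like Pln were Cox6a2 (0.331), Atp2a2 (0.284), Tnni3 (0.270), Ech1 (0.266) and Slc25a4 (0.261). For Ryr2 the gene most like it was Atp2a2, at a mean r of only 0.170.

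Within each section, spots with more overload gene RNA had less Atp2a2 and Pln RNA. Spots were divided at the quartiles of the summed level of Nppa, Nppb, Myh7, Ankrd1 and Acta1. Between the highest and the lowest of these groups of spots, the ratio for Atp2a2 was 0.883 (0.864 to 0.903) in sham, 0.919 (0.907 to 0.930) in TAC-2w, 0.924 (0.900 to 0.948) in TAC-4w and 0.907 (0.884 to 0.931) in TAC-6w. For Pln it was 0.855, 0.922, 0.900 and 0.907, so both genes differed to a like extent, also in sham. This was not particular to Atp2a2 and Pln. Ryr2 was at 0.880, 0.894, 0.987 and 0.891 and Hrc at 0.885, 0.957, 0.980 and 0.866, with intervals below 1 except in TAC-4w. Casq2 was at 1.08 (0.988 to 1.19), 0.994, 1.06 and 0.976, with intervals that hold 1 in each section. The sarcomere genes were at 0.949, 0.978, 1.04 and 0.965 between the same spots. Ranked by the collagen genes Col1a1, Col1a2 and Col3a1, the ratio for Atp2a2 was 0.900, 0.940, 0.845 and 0.921 and that for the sarcomere genes 0.898, 0.951, 0.904 and 0.939. Spots of 1 section are not replicates, and these ratios describe the sections.

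Of 56 other genes of calcium handling, a list covering regulators of the pump, junction proteins, calmodulins, channel subunits, kinase and phosphatase subunits and mitochondrial uptake, 49 had enough counts. In TAC-2w 1 was higher and 8 lower past the fold, in TAC-4w 5 and 12, and in TAC-6w 2 and 5. Their median ratio was 0.913, 0.886 and 1.02. Of 15 paralogs of the members 7 had enough counts, with 1, 1 and 2 higher and 1, 2 and 1 lower. The shares for all genes are those given above, and the lists are not tested against them.

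Among regulators of the pump, Strit1, whose peptide DWORF displaces phospholamban from SERCA, had the lowest ratio of all these genes in TAC-4w. Its level was 123 CPM in sham, 97.0 in TAC-2w, 43.9 in TAC-4w and 68.5 in TAC-6w. The ratio was 0.359 (0.308 to 0.416) in TAC-4w and 0.559 (0.491 to 0.635) in TAC-6w. Per UMI of Strit1, Atp2a2 was at 2.15 times its sham value (1.85 to 2.49) in TAC-4w. Sln, the atrial inhibitor of the pump, had 0 UMIs in the matched spots of sham, which allows a level of up to 0.519 CPM.

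At the membrane and the junctions, Tmem38b, a counter-ion channel of the reticulum, was at 27.4, 28.3, 61.6 and 26.2 CPM and so stood apart in TAC-4w (2.25, 1.86 to 2.74). Cav3, the muscle caveolin, was also highest there (1.61 times sham). Jph1, a junctophilin, was at 1.35 in TAC-2w and 1.34 in TAC-4w, the second with an interval that holds 1 (0.971 to 1.84). Cacnb2, the beta subunit of the L-type channel, was at 0.560 (0.485 to 0.647) in TAC-2w and 0.641 (0.530 to 0.774) in TAC-6w. Bin1, a protein of the transverse tubules, and Cacna1g, a T-type channel, were at 1.29 and 1.38 in TAC-6w, and Cacna1g at 1.27 in TAC-2w, with intervals that hold 1, while Bin1 was at 0.617 (0.474 to 0.809) in TAC-2w. Fxyd1, which regulates the sodium pump, was at 1.21 (1.17 to 1.25) in TAC-2w.

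Of the signalling genes, Pde4d, a cAMP phosphodiesterase, was among the lowest 5 in every comparison, at 0.584 (0.471 to 0.728), 0.401 (0.282 to 0.560) and 0.685 (0.514 to 0.908). Pde3a, another phosphodiesterase, was at 1.31 (1.15 to 1.49) in TAC-4w and, past the fold the other way, at 0.706 (0.605 to 0.823) in TAC-6w. In TAC-4w Calm3 was at 0.632 (0.560 to 0.713) and Prkaca, the catalytic subunit of protein kinase A, at 0.676 (0.617 to 0.741). In TAC-6w Rcan1, a target and regulator of calcineurin, was at 1.73 (1.46 to 2.07) and Calm2 at 1.32, both with intervals above 1, while Camk2a was at 0.493 (0.334 to 0.718) and Ppp1r3a, a glycogen-targeting phosphatase subunit, at 0.580 (0.473 to 0.709). Ppp1r3a too had been on the other side in TAC-4w, at 1.31 (1.11 to 1.53). For calcium outside the reticulum in TAC-2w, the mitochondrial exchanger gene Slc8b1 was at 0.531 (0.408 to 0.693), the plasma membrane pump Atp2b4 at 0.601 (0.491 to 0.739), the pump paralog Atp2a3 at 0.580 (0.452 to 0.749) and Smdt1, a subunit of the mitochondrial uniporter, at 1.26, with an interval above 1. Casq1, the skeletal muscle calsequestrin, had few UMIs (16 in sham and 154 in TAC-2w) and ratios of 3.01 (1.79 to 5.39), 2.08 (1.10 to 4.06) and 2.36 (1.27 to 4.57).

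The single-cell libraries were used to see in which barcodes these genes were detected, though few barcodes had cardiomyocyte markers. Barcodes were kept, as in the methods, with 200 to 6000 genes detected, 500 to 30000 UMIs in all and less than 15% of them mitochondrial, and 5577 to 8228 barcodes were left per library. A barcode was gated by the markers of a cell type when these had the most marker UMIs of 10 classes, at least 5 from at least 3 markers, at least 0.5% of its UMIs outside mt- and at least 3 times those of the next class. Such a gate is a range of marker counts and not a cell type. Cardiomyocyte markers gated 105 barcodes in sham, 72 in TAC-2w, 22 in TAC-4w and 10 in TAC-6w, of which 1 lay within 2 times of the cut on the marker share. By the labels TAC-2w was batch 1, TAC-4w batch 2, and sham and TAC-6w batch 3 of the libraries. Libraries shared 9 to 30 barcode sequences per pair.

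In these barcodes Pln was at 6085 CPM in sham, 5675 in TAC-2w and 7971 in TAC-4w, the 3 libraries with at least 20 of them, and Trdn at 480.0, 460.4 and 617 CPM. In other gated classes the mean of Trdn over libraries was at most 2.68 CPM and that of Pln at most 45.5 CPM outside smooth muscle, and whether these UMIs are free RNA was not tested. Atp2a2, by contrast, was at only 427, 604 and 774 CPM in barcodes gated by cardiomyocyte markers, with 162, 181 and 84 UMIs, where the sections held 8695 to 11304 CPM. Ryr2 was at 158, 167 and 73.7 CPM and Hrc at 60.7, 103 and 184 CPM, also below their section levels. Casq2 had 5, 10 and 7 UMIs, Slc8a1 5, 16 and 1, and Cacna1c 5, 3 and 0. The ratio of Atp2a2 to Pln was 0.0702 (0.0595 to 0.0824) in sham, 0.106 (0.0908 to 0.124) in TAC-2w and 0.0971 (0.0767 to 0.122) in TAC-4w, where all sections were above 1.

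This ratio moved with the mitochondrial share of the barcodes, a split chosen after the values were seen. Without the filters, 250, 239, 58 and 23 barcodes had cardiomyocyte markers in sham and the TAC libraries by time. In sham, Atp2a2 to Pln was 0.0702 in the barcodes under a share of 15%, 0.213 (0.184 to 0.246) in 73 barcodes between 15% and 50% and 1.02 (0.892 to 1.16) in 72 barcodes above 50%. In TAC-2w it was 0.106, 0.644 (0.576 to 0.719) and 3.52 (3.07 to 4.06), and in TAC-4w 0.0971, 0.130 (0.0880 to 0.186) and 0.396 (0.227 to 0.668). The level of Atp2a2 in sham was 427, 1477 and 5093 CPM in the same bands, and that of Ryr2 158, 335 and 742 CPM, while Trdn was at 480.0, 619 and 399 CPM. The bands of sham also differed in other genes. Myh6 was at 1208, 5284 and 13098 CPM, and the atrial markers Myl7 at 15079, 9484 and 5702 and Sln at 8440, 5729 and 3776 CPM. In the bands of TAC-2w Atp2a2 was at 604, 2969 and 8670 CPM while Pln was at 5675, 4611 and 2462 CPM. The ratio there thus rose with a higher Atp2a2 and a lower Pln. Myl2 was at 11861, 10325 and 4302 CPM in these bands and Myl7 at 15494, 11973 and 9708 CPM. The filter thus left in the barcodes with the least Atp2a2. Why the level follows the mitochondrial share was not tested.

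The same barcodes differed from the sections in the chamber markers too. Sln was at 8440 CPM in sham, 10146 in TAC-2w and 1382 in TAC-4w, and had 0 UMIs in the 10 barcodes of TAC-6w, which allows up to 170 CPM. Myl7, the atrial light chain, was at 15079, 15494 and 1898 CPM, beside Myl2, the ventricular light chain, at 15999, 11861 and 28412 CPM. The sections held at most 1 UMI of Sln in their matched spots. The libraries of sham and TAC-2w, and at lower levels that of TAC-4w, thus carry an atrial signal that the sections lack, and the conditions differ in it. No comparison of the calcium-handling genes between the libraries was therefore made.

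Several members were also detected outside cardiomyocyte-gated barcodes. Barcodes gated by smooth muscle and pericyte markers, of which 2 libraries had at least 20, held Atp2a2 at 597 and 628 CPM, Pln at 332 to 568, Casq2 at 59.8 to 85.6, Slc8a1 at 106 to 187 and Cacna1c at 26.9 to 35.3 CPM. Trdn was at 0 to 0.995 CPM in them. The order of the classes depended on the filter: without it Atp2a2 was at 1363 CPM in sham and 2790 CPM in TAC-2w in cardiomyocyte-gated barcodes, against 629 and 742 CPM in smooth muscle and pericyte ones, and Casq2 at 62.5 and 156 against 81.8 and 122 CPM. In the cardiomyocyte-gated barcodes of the same libraries, Slc8a1 was then at 49.6 and 149 CPM and Cacna1c at 22.4 and 34.3 CPM. Above a mitochondrial share of 50%, Slc8a1 and Cacna1c were at 155 and 77.5 CPM in sham and 396 and 142 CPM in TAC-2w. In the 16 such barcodes of TAC-4w both genes had 0 UMIs. Camk2d was broad, with a mean over libraries of 181 CPM in barcodes gated by B cell markers, 178 in smooth muscle, 100 in endothelial, 78.8 in fibroblast and 60.8 in cardiomyocyte-gated barcodes. Slc8a1 was at 33.7 to 48.3 CPM in the 4 libraries in barcodes gated by macrophage markers, above the 2.53 to 9.14 CPM of endothelial ones. Fkbp1b had 0 UMIs in the cardiomyocyte-gated barcodes of the 4 libraries and was at 10.9 to 15.8 CPM in macrophage-gated and 3.62 to 10.8 CPM in fibroblast-gated barcodes. Its absence from the cardiomyocyte-gated barcodes allows a level of up to 7.91 CPM in sham and 27.6 CPM in TAC-4w, so that its place among cardiomyocyte genes was not seen here. Atp2a2 was at 152 to 170 CPM in fibroblast-gated barcodes.

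**Figure D5:**
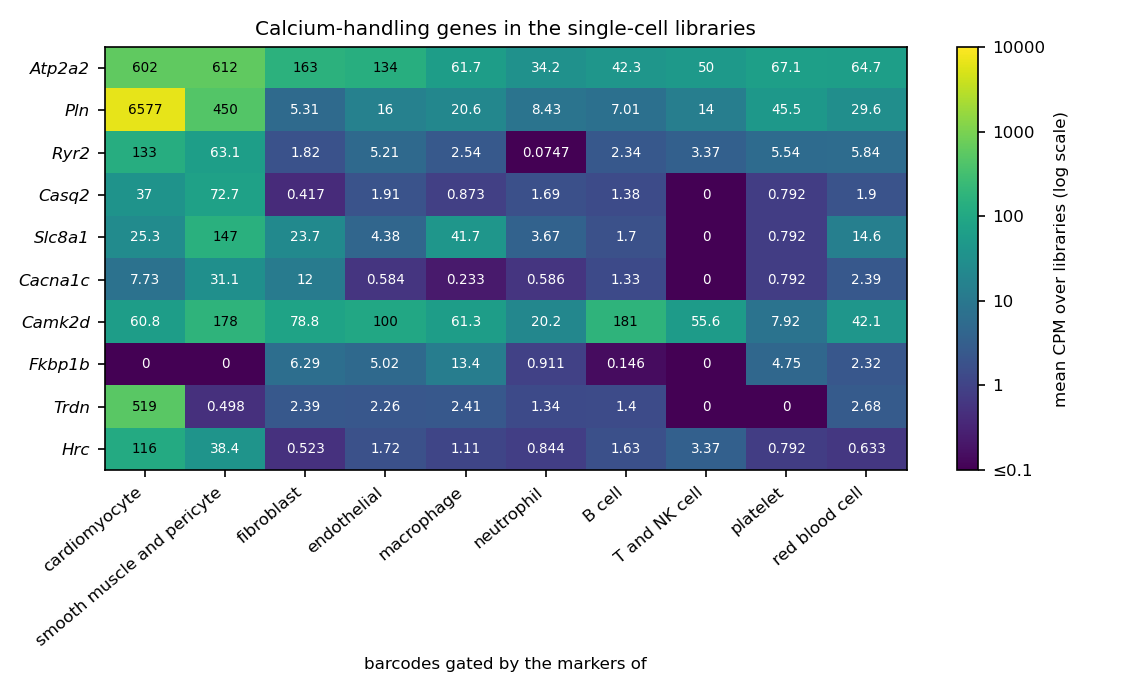
Level of the 10 calcium-handling genes in barcodes gated by the markers of 10 cell classes, as the mean CPM over the libraries with at least 20 such barcodes (colour on a log scale, values printed). Pln, Trdn, Ryr2 and Hrc are highest in cardiomyocyte-gated barcodes, Atp2a2 (612 against 602), Casq2, Slc8a1 and Cacna1c in smooth muscle and pericyte ones, Camk2d in B cell ones and Fkbp1b in macrophage ones (13.4). The barcodes passed the filter on mitochondrial share, and the means cover 3 libraries for cardiomyocyte-gated and 2 for smooth muscle and pericyte barcodes. Without the filter Atp2a2 was at 1363 CPM in sham and 2790 CPM in TAC-2w in the first, above the 629 and 742 CPM of the second. Slc8a1 and Cacna1c of the first also rose without it, to 49.6 and 22.4 CPM in sham and 149 and 34.3 CPM in TAC-2w.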

How the data were processed

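The authors aligned the reads to mm10 and deposited UMI counts per gene and spot or barcode, without normalization. File headers name cellranger 6.0.0 and spaceranger 1.2.0, the submitters' processing notes Cell Ranger 7.0.0 and Space Ranger 1.3.1, which was not settled. The labels describe nuclei and the methods cells, and the methods name kits for both transcript ends, so the libraries are called single-cell libraries here without deciding this.

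The members and lists were chosen with earlier results of these data known. Counts were summed over matched spots in Python 3.11.15, using numpy 2.4.6 and, for intervals, scipy 1.17.1. Levels have exact Poisson 95% intervals and ratios exact conditional binomial ones, while changes of a ratio have log-normal intervals. Only the binomial intervals were tested, on simulated Poisson counts. Such counts lack the spread between spots beyond counting, so this checked the computation and not the counting model. Floors use 3 counts. Spots were otherwise not filtered, and mixed barcodes were left out by the marker rule, with no doublet caller. Named genes were all members, the 5 highest and 5 lowest other calcium-handling genes or paralogs per comparison, and the 5 genes most like Atp2a2, Pln and Ryr2 across spots (for Ryr2 the first is given). One gene that this rule names is not reported here. Alternatives were other depths, interior spots, means over spots, other totals, median-of-ratios scaling, other folds, no count filter and other gates.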

Additional observations from a re-analysis of the deposited data

Results flagged for a closer look

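For 3 genes the counting intervals of the ratio to sham lay above 1 at one time after TAC and below 1 at another, a difference between time points that was not tested, since each time has 1 section. Pln was at 1.17 in TAC-2w and 0.896 in TAC-6w. Casq2 was at 1.14 in TAC-6w and 0.897 in TAC-4w, and Slc8a1 at 1.09 in TAC-4w and 0.882 in TAC-6w. Per UMI of 6 sarcomere genes the lower values of these pairs became 1.01 for Pln, 1.25 for Casq2 and 0.992 for Slc8a1. On that scale the median of all genes tested was 1.34 in TAC-4w and 1.18 in TAC-6w.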

How the results depend on the processing

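The ratio of Atp2a2 to Pln was below sham in all 3 TAC sections under each of 6 alternatives, at 0.783 to 0.809 in TAC-2w, 0.728 to 0.769 in TAC-4w and 0.839 to 0.867 in TAC-6w. Leaving out atrial-marker spots is among the 6 but removed no spot, so it could not change the ratio. The ratio left its counting interval in spots of 10000 to 20000 UMIs in TAC-2w (0.783), with all spots over tissue (0.769) and in spots of 30000 to 50000 UMIs (0.769) in TAC-4w, and in those deeper spots in TAC-6w (0.839). The count of members lower past the fold was 0 in TAC-2w, 3 in TAC-4w and 3 in TAC-6w. With all genes in the total it was 0, 1 and 0 (of all genes 10.8%, 7.21% and 2.75%), per sarcomere gene 0, 0 and 0 (13.9%, 2.43% and 2.82%), and at a fold of 1.5 it was 0, 1 and 0 (10.4%, 7.47% and 2.31%). At a fold of 1.2 it was 2 in TAC-2w (38.7%), and without the count filter 1 (Fkbp1b, 18.4%). The count higher was 0 except in the following settings. In TAC-2w it was 1 with all genes in the total (Pln, 12.7%) and 2 under median-of-ratios scaling (Pln and Casq2, 13.3%). In TAC-4w it was 1 in spots of 30000 to 50000 UMIs (Slc8a1, 16.0%) and 2 per sarcomere gene (Pln and Slc8a1, 55.7%). Atp2a2 in TAC-4w reversed to 1.07 per sarcomere gene, where the median of all genes tested was 1.34. In TAC-2w Atp2a2 was above sham with all genes in the total (1.08), under median-of-ratios scaling (1.09) and per sarcomere gene (1.04). Of the 9 members with enough counts, Atp2a2, Ryr2, Cacna1c, Trdn and Hrc were below sham in TAC-6w under all these scalings and spot choices. So were Ryr2 and Hrc in TAC-4w and Cacna1c and Camk2d in TAC-2w. Spots under 10000 UMIs entered these choices only as part of all spots over tissue. The share of all genes with such a course was not counted. In cardiomyocyte-gated barcodes Atp2a2 to Pln without filters was 0.222 in sham and 0.585 in TAC-2w. By mitochondrial share, added after seeing the data, it was 0.213 and 1.02 in sham, 0.644 and 3.52 in TAC-2w, 0.130 and 0.396 in TAC-4w, and 0.238 in TAC-6w above 50%. The causes were not tested. No spot reached the atrial share, at 0.5% or at 1%, so leaving such spots out removed none. Depth limits Fkbp1b, with 6 to 15 UMIs per section. No paired analysis was possible because each condition has 1 section and 1 library.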
